A study of Mus musculus with 12 samples.

Results

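The genes described here are 49 members of the machinery that takes newly made proteins into the endoplasmic reticulum (ER) and carries them in vesicles to and from the Golgi. They are 4 subunits of the signal peptidase complex, 4 of the translocon-associated protein complex, 5 genes of the Sec61 channel, 10 of the COPII coat, 9 of the COPI coat, 9 p24 proteins, 3 KDEL receptors and 5 cargo receptors. They were taken by gene symbol, and all 49 of them were found among the 55414 genes of the count table. Every one passed the filter on low counts, which left 13057 genes to be tested.

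A protein destined for secretion is threaded through the Sec61 channel while it is being made, the translocon-associated proteins sit beside that channel, and the signal peptidase removes the leading signal peptide. COPII-coated vesicles then bud from ER exit sites towards the Golgi, and COPI-coated vesicles carry escaped ER proteins and recycled receptors back, with p24 proteins, KDEL receptors and lectin-like cargo receptors selecting what is loaded. Paneth cells are secretory cells at the base of small-intestinal crypts that release antimicrobial peptides such as alpha-defensins and lysozyme, and their cytoplasm is rich in ER and granules.

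RNA-seq was performed on sorted small-intestinal crypt cells of naive, untreated C57BL/6J mice that were either GR wild type (WT) or lacked the glucocorticoid receptor (GRKO). The labels call the knockout mice GRvillinKO. Villin is a protein of the intestinal epithelium, so the deletion is named for epithelial cells and not for Paneth cells alone. Each genotype gave a Paneth cell fraction, sorted as CD24+ cKIT+ cells of medium to high side scatter without CD31, CD45 or TER119, and a fraction of other crypt cells (non-Paneth) whose gate the sources used here do not give. Each genotype and fraction was measured in 3 libraries, which makes 4 groups. Age and sex are not given in the labels, and the study's methods describe all mice as young adults of one range of ages. The titles of the samples were used for the genotype because the genotype field gives every Paneth sample one genotype and every non-Paneth sample the other. The labels do not state that the 3 samples of a group came from separate mice, so p-values measure the spread between these samples.

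The libraries held 11126297 to 15910292 counts. The targeted gene Nr3c1, which encodes the glucocorticoid receptor, was at 40.8, 50.3 and 54.1 CPM in WT Paneth and 7.97, 5.82 and 15.4 CPM in GRKO Paneth cells (edgeR, log2 fold change -2.31 ± 0.319 SE, adjusted p = 0.0331). In non-Paneth cells Nr3c1 was at 110, 126 and 131 CPM in WT and 20.03, 13.1 and 24.5 CPM in GRKO libraries (edgeR, log2 fold change -2.67 ± 0.298 SE, adjusted p = 6.67e-05). The genotype in the titles therefore matched the level of the targeted gene in all 12 libraries. The summed level of 10 Paneth markers was 433400 to 674500 CPM in the 6 Paneth libraries and 366 to 1141 CPM in the 6 non-Paneth libraries. The summed level of 8 enterocyte markers was 24160 to 26850 CPM in WT non-Paneth but 5074 to 6296 CPM in GRKO non-Paneth libraries, and 833 to 2507 CPM in Paneth libraries. The 6 tuft cell markers summed to 161 to 439 CPM in WT Paneth, 407 to 1087 CPM in GRKO Paneth, 3.12 to 8.78 CPM in WT non-Paneth (where Il25 and Gfi1b were at 0) and 63.5 to 249 CPM in GRKO non-Paneth libraries. The 8 goblet cell markers, of the other granule-bearing secretory cell of the crypt, summed to 11470 to 14670 CPM in WT Paneth, 7127 to 15120 CPM in WT non-Paneth, 11420 to 18450 CPM in GRKO Paneth and 6104 to 8556 CPM in GRKO non-Paneth libraries. The goblet sums join markers that went opposite ways between the fractions. Of the 8, 3 were called higher and 3 lower in WT Paneth cells, and 4 higher and 2 lower in GRKO Paneth cells. Spink4 was at 8231, 9595 and 7137 CPM in WT Paneth and 230, 361 and 205 CPM in WT non-Paneth libraries. Zg16 was at 106, 263 and 42.0 CPM against 3816, 3884 and 1857 CPM. The 6 stem cell markers summed to 8351 to 8750 CPM in WT Paneth and 3910 to 5216 CPM in WT non-Paneth libraries. In GRKO mice the sums were 4514 to 6536 and 5169 to 6528 CPM. Of the 6, 6 were called higher in WT and 2 in GRKO Paneth cells. Of 6 tuft markers 5 were higher in both Paneth fractions. Immune markers summed to 10.9 to 36.2 CPM in Paneth and 1.25 to 6.75 CPM in non-Paneth libraries. Endothelial and erythroid markers were at or near 0 in every library. Xist, which is expressed from the inactive X chromosome of female cells, was at 193 and 214 CPM in the 2 libraries of WT replicate 2 and below 0.5 CPM in the other 10. Without both WT replicate 2 libraries 18 members were higher and 8 lower in WT Paneth than in WT non-Paneth cells. Of 13267 genes tested in that fit, 2373 were higher and 2840 lower. Between genotypes in Paneth cells 0 members and 1 gene were called. In GRKO non-Paneth cells 2 members were higher and 6 lower, against 1513 and 2097 of all tested genes. The genotype effects differed for 12 members in the positive and 1 in the negative direction, against 1217 and 465 of all tested genes.

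Because a few granule genes take a large part of each Paneth library, levels here are read counts scaled to a fixed library size (CPM) with TMM factors, which correct for such composition and lay between 0.656 and 0.826 in Paneth libraries and between 1.197 and 1.5 in non-Paneth libraries. The choice decides what is meant by higher. As a plain share of all counts, the 49 genes took 0.564% ± 0.035 (SD, n = 3) of WT Paneth counts and 0.755% ± 0.076 of WT non-Paneth counts. On the TMM scale their summed level was 7627 ± 1134 CPM in WT Paneth (6392 to 8621) and 6233 ± 622 CPM in WT non-Paneth cells (5619 to 6862), so the ranges overlapped and the order was the opposite. In GRKO mice the members took 0.711% ± 0.074 of Paneth counts and 0.843% ± 0.028 of non-Paneth counts, while on the TMM scale the sums were 9435 ± 84.3 and 5700 ± 134 CPM. Scaling by library totals alone moved the log2 fold change of the median gene from 0.01 to -0.68 in the WT comparison of fractions and from -0.08 to -1.05 in the GRKO one. Relative to that median the members' median was 0.27 higher with TMM and 0.26 higher with library totals in WT, and 0.75 higher with both in GRKO mice. A change of scaling shifts the log2 fold changes of all genes by nearly the same amount, so that agreement follows from the method. Fewer cells of a type and less RNA per cell cannot be told apart in such bulk samples.

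Promoter sequences are shown for Kdelr3, Sec24d, Sec23a, Copb1 and Copb2, the 5 members that hold TGACGTGG, and for Copz2 and Tmed6, which had the largest fold changes between the cell fractions. Of these, Copb1 was not called in any comparison. Each is the stretch from 170 bases before to 30 bases after the annotated start, 5′ to 3′ on the strand of the gene, from RefSeq on GRCm38.p6, a build older than the one the reads were aligned to. Capitals mark TGACGTGG or its core ACGTGG on either strand, so that CCACGTCA is the same motif read from the other strand. Kdelr3 lies at chr15:79516238-79516437 on the + strand, Sec24d at chr3:123267326-123267525 on the + strand, Sec23a at chr12:59011988-59012187 on the - strand, Copb1 at chr7:114254651-114254850 on the - strand and Copb2 at chr9:98563561-98563760 on the + strand. Copz2 lies at chr11:96849706-96849905 on the + strand and Tmed6 at chr8:107065615-107065814 on the - strand.
Kdelr3: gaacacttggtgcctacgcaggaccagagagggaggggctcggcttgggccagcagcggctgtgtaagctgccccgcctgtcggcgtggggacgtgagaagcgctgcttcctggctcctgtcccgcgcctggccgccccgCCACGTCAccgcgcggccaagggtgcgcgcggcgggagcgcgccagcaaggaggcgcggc
Sec24d: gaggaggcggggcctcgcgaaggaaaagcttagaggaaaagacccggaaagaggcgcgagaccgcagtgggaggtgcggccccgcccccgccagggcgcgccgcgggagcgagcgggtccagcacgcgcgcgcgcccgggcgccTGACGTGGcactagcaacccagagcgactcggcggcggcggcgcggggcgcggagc
Sec23a: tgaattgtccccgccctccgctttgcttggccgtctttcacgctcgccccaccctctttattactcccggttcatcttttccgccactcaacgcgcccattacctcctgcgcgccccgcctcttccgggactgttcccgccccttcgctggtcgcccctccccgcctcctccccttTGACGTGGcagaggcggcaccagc
Copb1: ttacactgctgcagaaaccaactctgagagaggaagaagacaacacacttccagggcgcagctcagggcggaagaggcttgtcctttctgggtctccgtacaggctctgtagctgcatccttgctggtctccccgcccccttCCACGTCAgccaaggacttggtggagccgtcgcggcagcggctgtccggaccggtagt
Copb2: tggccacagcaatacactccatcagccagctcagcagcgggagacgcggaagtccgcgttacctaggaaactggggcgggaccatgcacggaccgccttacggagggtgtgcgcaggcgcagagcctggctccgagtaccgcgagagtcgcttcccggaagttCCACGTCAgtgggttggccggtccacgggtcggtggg
Copz2: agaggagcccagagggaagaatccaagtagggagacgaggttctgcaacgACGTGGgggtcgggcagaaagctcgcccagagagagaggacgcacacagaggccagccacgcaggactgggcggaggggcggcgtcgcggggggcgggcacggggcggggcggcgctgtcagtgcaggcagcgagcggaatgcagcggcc
Tmed6: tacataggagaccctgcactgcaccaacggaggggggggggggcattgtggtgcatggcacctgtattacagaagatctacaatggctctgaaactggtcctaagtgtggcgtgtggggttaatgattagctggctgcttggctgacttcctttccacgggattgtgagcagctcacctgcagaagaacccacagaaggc

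TGACGTGG contains the ACGTGG core that XBP1 and ATF6, transcription factors of the ER stress response, are known to bind. In the full window of 250 bases before to 50 after the start, TGACGTGG was found on either strand in 5 of 45 promoters of 40 members (11.1%), in 0.969% of the 12695 promoters of tested genes and in 0.676% of all 32851 promoters. ACGTGG, which lies inside TGACGTGG, was found in 22 member promoters (48.9%), against 11.3% and 8.31%. The palindromic TGACGTCA was in 1 member promoter (2.22%, against 2.95% of promoters of tested genes), and CCAAT was in 19 (42.2%, against 38%). The 2 longer ER stress response elements, known as ERSE and ERSE-II, were found in 0 of 45 member promoters, and in 0.134% and 0.0709% of promoters of tested genes. In the 5 genes with TGACGTGG the match lay within 30 bases of the annotated start, starting 30 bases before it in Kdelr3, 28 in Copb1, 26 in Sec24d and 7 in Copb2 and reaching 13 bases past it in Sec23a. The core was held by 9 of 15 members with a promoter that were called higher in WT Paneth cells, by 6 of 9 called lower and by 6 of 16 not called. The other 9 members had no promoter in the table. These matches describe letters in the windows and are not binding sites.

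**Figure D1:**
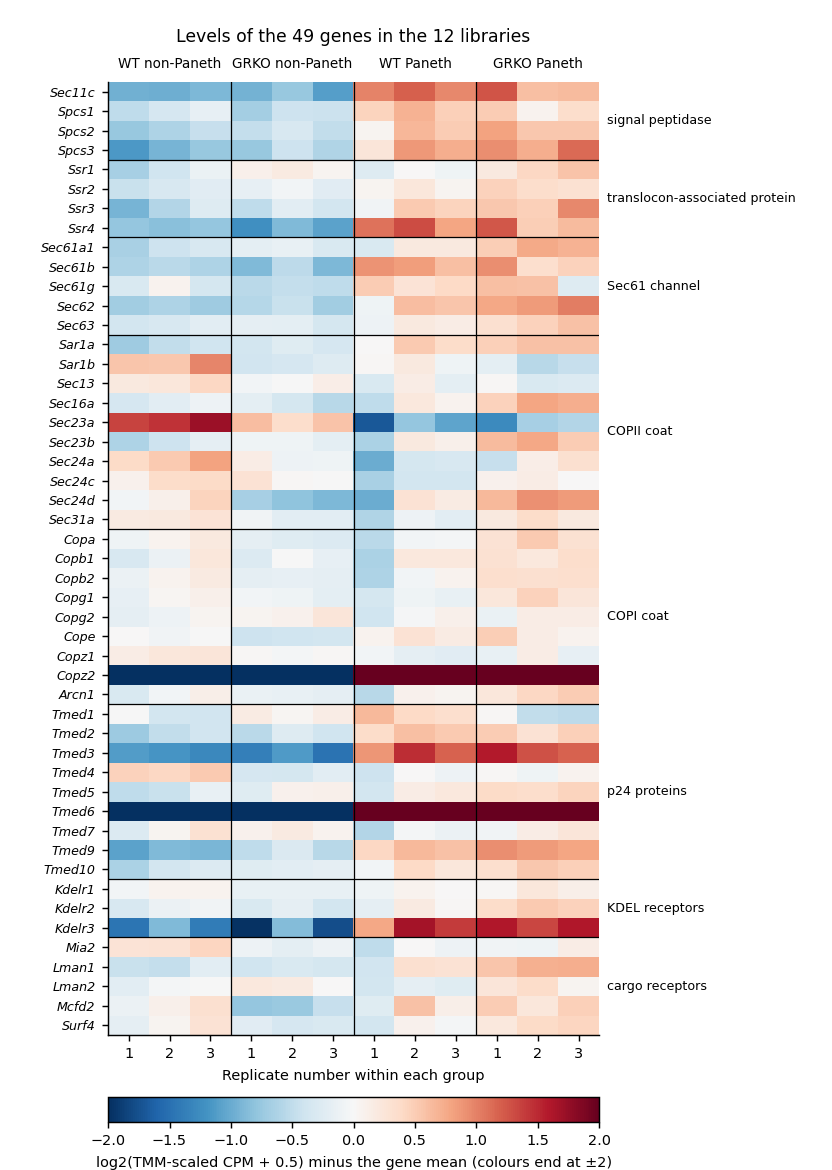
Levels of the 49 genes (rows, grouped by role) in the 12 libraries (columns, by replicate within each group), as log2 of TMM-scaled CPM plus 0.5 after the mean of each gene was subtracted, with colours ending at 2 on either side. Copz2, Tmed6, Kdelr3 and Tmed3 separate the 6 Paneth from the 6 non-Paneth libraries, and Sec23a runs the other way.

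The comparison of WT Paneth with WT non-Paneth cells asks how the machinery differs between the sorted Paneth fraction and its crypt neighbours. Stem and tuft cell markers were also higher in that fraction, as given above. The part of the mix of cells in the differences between fractions was not tested. With TMM scaling, 21 of the 49 genes were higher in Paneth cells and 9 were lower by edgeR's quasi-likelihood test at an adjusted p under 0.05, where 24% of all tested genes were higher and 26.7% were lower. The median log2 fold change of the members was 0.28, against 0.01 for all tested genes. The genes of entry into the ER stood on one side, with 11 of 13 higher and 0 lower, while 6 of the 10 COPII genes were lower and 1 was higher. With library totals alone 5 of the same 13 entry genes were higher and 1 was lower, and 9 COPII genes were lower and 0 higher. By library totals 1097 of the 13057 tested genes were higher and 7892 were lower. The 7 COPI subunits other than the zeta paralogs were not called in either direction with TMM scaling.

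All 4 signal peptidase genes were higher in WT Paneth cells, with a median log2 fold change of 1.305, and 3 were higher and 0 lower with library totals alone. Sec11c, a catalytic subunit, was at 244, 279 and 239 CPM in WT Paneth and 62.4, 61.8 and 65.5 CPM in WT non-Paneth libraries. The groups did not overlap, and the log2 fold change was 2.01 ± 0.167 SE (edgeR, adjusted p = 1.26e-07). Spcs1, the accessory subunit with the smallest change of the complex, was at 124, 148 and 127 CPM against 64.2, 72.2 and 81.2 CPM (edgeR, log2 fold change 0.87 ± 0.14 SE, adjusted p = 9.37e-05). Spcs2 and Spcs3 rose by 1.04 and 1.57 on the log2 scale.

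In the translocon-associated protein complex, Ssr2, Ssr3 and Ssr4 were higher in WT Paneth cells with TMM scaling and none was lower, whereas with library totals alone 1 was higher and 1 was lower. Ssr4, its delta subunit, was at 403, 468 and 329 CPM in WT Paneth and 110, 106 and 111 CPM in WT non-Paneth libraries (edgeR, log2 fold change 1.88 ± 0.184 SE, adjusted p = 6.88e-07). The lowest Paneth library was far above the highest non-Paneth library. Ssr1, the alpha subunit, was at 157, 189 and 178 CPM against 118, 143 and 171 CPM, and these groups overlapped (edgeR, log2 fold change 0.28 ± 0.143 SE, adjusted p = 0.118). Subunits of a single complex thus changed by unequal amounts, from 0.28 for Ssr1 through 0.44 for Ssr2 and 0.89 for Ssr3 to 1.88 for Ssr4 on the log2 scale.

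Of the Sec61 channel genes, 4 of 5 were higher in WT Paneth cells and 0 were lower, and with library totals alone 1 was higher and 0 were lower. Sec61b, the small beta subunit of the channel, was at 201, 192 and 163 CPM in WT Paneth and 69.7, 73.6 and 69.8 CPM in WT non-Paneth libraries (edgeR, log2 fold change 1.39 ± 0.158 SE, adjusted p = 3.16e-06). The pore-forming subunit Sec61a1 rose by 0.50 and Sec62, an accessory protein of post-translational translocation, by 1.08. Sec63, which recruits the chaperone BiP to the channel, was at 93.7, 115 and 111 CPM against 78.0, 80.7 and 86.6 CPM, and its groups did not overlap (edgeR, log2 fold change 0.38 ± 0.117 SE, adjusted p = 0.0127). Sec61g, the gamma subunit, had only 1.54 to 3.99 CPM in all 12 libraries, from 21 to 45 counts. Its log2 fold change was 0.69 ± 0.305 SE (edgeR, adjusted p = 0.071). Of the 50-base windows in the Sec61g transcript 88.1% occur once in the genome, and the part of the counting in its low level was not tested.

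The COPII coat was the role group with the most genes lower in WT Paneth cells, and its median log2 fold change was -0.45. Sec23a, an inner coat subunit that activates the GTPase Sar1, was at 14.6, 28.2 and 23.2 CPM in WT Paneth and 125, 134 and 160 CPM in WT non-Paneth libraries. The groups lay far apart, with a 6.38-fold lower level in Paneth cells (edgeR, log2 fold change -2.67 ± 0.226 SE, adjusted p = 2.74e-07). Its paralog Sec23b was at 64.2, 115 and 108 CPM against 65.5, 75.4 and 89.0 CPM, with overlapping groups and a log2 fold change of 0.31 ± 0.18 SE (edgeR, adjusted p = 0.161).

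The Sar1 GTPases, which start coat assembly at the membrane, moved in opposite directions. Sar1a was at 99.3, 141 and 127 CPM in WT Paneth and 59.7, 69.4 and 74.6 CPM in WT non-Paneth libraries (edgeR, log2 fold change 0.85 ± 0.134 SE, adjusted p = 8.08e-05). Sar1b, known for its part in chylomicron secretion by enterocytes, was at 70.3, 78.9 and 64.7 CPM against 101.1, 100.7 and 136 CPM (edgeR, log2 fold change -0.66 ± 0.141 SE, adjusted p = 0.00112). Neither pair of groups overlapped. With library totals alone the log2 fold change of Sar1a stayed positive, at 0.13.

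Of the Sec24 cargo-binding subunits, Sec24a and Sec24c were lower in WT Paneth cells. Sec24a was at 23.2, 36.5 and 37.1 CPM against 61.2, 67.2 and 81.6 CPM (edgeR, log2 fold change -1.12 ± 0.207 SE, adjusted p = 0.000381). Sec24c was at 106, 128 and 129 CPM against 175, 214 and 216 CPM (edgeR, log2 fold change -0.74 ± 0.129 SE, adjusted p = 0.000197). Sec24d was at 50.9, 126 and 114 CPM against 97.8, 110 and 140 CPM, so that replicate 1 stood well below the other two Paneth libraries and the groups overlapped (edgeR, log2 fold change -0.26 ± 0.261 SE, adjusted p = 0.429). The outer coat gene Sec31a was at 187, 265 and 246 CPM in WT Paneth and 321, 325 and 343 CPM in WT non-Paneth libraries (edgeR, log2 fold change -0.50 ± 0.132 SE, adjusted p = 0.00486), and its partner Sec13 fell by 0.39. Sec16a, the scaffold of ER exit sites, was at 95.6, 156 and 143 CPM against 107, 117 and 126 CPM and was not called (edgeR, adjusted p = 0.418).

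In the COPI coat, the gene that changed most was Copz2, which encodes the less common zeta subunit. Copz2 was at 32, 46.4 and 46.1 CPM in WT Paneth libraries, from 337 to 390 counts. In WT non-Paneth libraries it was at 0.509, 0.523 and 0.16 CPM, from 8, 9 and 3 counts. The level was 104-fold higher in Paneth cells (edgeR, log2 fold change 6.70 ± 0.283 SE, adjusted p = 3.51e-10), and few counts on the lower side set its precision. Copz1, the common zeta subunit, was at 168, 153 and 148 CPM against 192, 204 and 206 CPM (edgeR, log2 fold change -0.36 ± 0.113 SE, adjusted p = 0.0145), and the groups did not overlap.

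The other COPI subunits had log2 fold changes between -0.26 and 0.20 in WT cells and were not called with TMM scaling. Copa, the alpha subunit, was at 249, 346 and 349 CPM in WT Paneth and 340, 378 and 411 CPM in WT non-Paneth libraries (edgeR, log2 fold change -0.26 ± 0.141 SE, adjusted p = 0.139). Again replicate 1 was the low Paneth library. On library totals alone 8 COPI genes were lower and Copz2 was higher. Per kilobase of the canonical transcript, levels of the subunits in WT Paneth cells were 67.7 CPM per kb for Copa, 50.8 for Copb1, 46.2 for Copb2, 38.8 for Copg1, 60.7 for Cope, 45.9 for Arcn1, 94.3 for Copz1 and 44.1 for Copz2.

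Most p24 proteins, which cycle between the ER and Golgi as cargo receptors and coat adaptors, were higher in WT Paneth cells, 6 of 9 with 1 lower. With library totals alone 4 were higher and 2 were lower. Tmed6 was at 183, 263 and 217 CPM in WT Paneth and 3.44, 3.72 and 3.85 CPM in WT non-Paneth libraries, a 60.0-fold difference with no overlap (edgeR, log2 fold change 5.91 ± 0.244 SE, adjusted p = 3.73e-10). Tmed3 was 5.31-fold higher (edgeR, log2 fold change 2.41 ± 0.162 SE, adjusted p = 1.63e-08). Tmed9 was at 149, 175 and 169 CPM against 53.2, 60.6 and 59.3 CPM (edgeR, log2 fold change 1.51 ± 0.116 SE, adjusted p = 5.67e-08).

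Tmed2 and Tmed10, the abundant beta and delta p24 proteins, rose by 1.04 and 0.62, but of the 50-base windows in their transcripts only 28.1% and 38.7% occur once in the genome, so their counts may leave out many reads. Tmed4 was the p24 gene that fell. It was at 72.1, 96.8 and 89.8 CPM in WT Paneth and 133, 128 and 139 CPM in WT non-Paneth libraries (edgeR, log2 fold change -0.63 ± 0.12 SE, adjusted p = 0.00043). Tmed1 was at 18.04, 15.2 and 14.4 CPM against 11.3, 8.66 and 8.60 CPM and did not overlap (edgeR, log2 fold change 0.74 ± 0.181 SE, adjusted p = 0.00295). Tmed5 and Tmed7 were not called, at 0.38 and -0.29.

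The KDEL receptors, which return chaperones with a KDEL tail from the Golgi to the ER, differed among themselves. Kdelr3 was at 31.1, 58.1 and 47.8 CPM in WT Paneth and 6.17, 9.47 and 6.47 CPM in WT non-Paneth libraries, a 6.17-fold difference (edgeR, log2 fold change 2.63 ± 0.316 SE, adjusted p = 2.28e-05). Kdelr1 was at 136, 153 and 146 CPM against 140, 152 and 152 CPM, so these groups overlapped (edgeR, log2 fold change -0.03 ± 0.103 SE, adjusted p = 0.837). Kdelr2 was at 138, 176 and 159 CPM against 125, 143 and 149 CPM and also overlapped (edgeR, log2 fold change 0.18 ± 0.121 SE, adjusted p = 0.229). On library totals alone, Kdelr3 was higher and Kdelr1 and Kdelr2 were lower.

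Among the cargo receptors, Lman1 (the lectin ERGIC-53) was at 114, 185 and 181 CPM in WT Paneth and 109, 106 and 128 CPM in WT non-Paneth libraries. It passed the test although the groups overlapped (edgeR, log2 fold change 0.48 ± 0.158 SE, adjusted p = 0.0185). It was the only called gene of the 30 with overlapping groups, and the share among all called genes was not computed. Mia2, an organiser of exit sites for large cargo, was at 96.5, 139 and 128 CPM against 167, 170 and 186 CPM (edgeR, log2 fold change -0.53 ± 0.133 SE, adjusted p = 0.0038). Mcfd2, the partner of Lman1, was at 105, 189 and 136 CPM against 115, 134 and 156 CPM, and Surf4, a receptor for soluble cargo, was at 283, 389 and 358 CPM against 322, 381 and 450 CPM. Neither Mcfd2 nor Surf4 was called (edgeR, adjusted p = 0.735 and 0.375). On library totals alone 4 of the 5 cargo receptor genes were lower and 0 were higher.

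**Figure D2:**
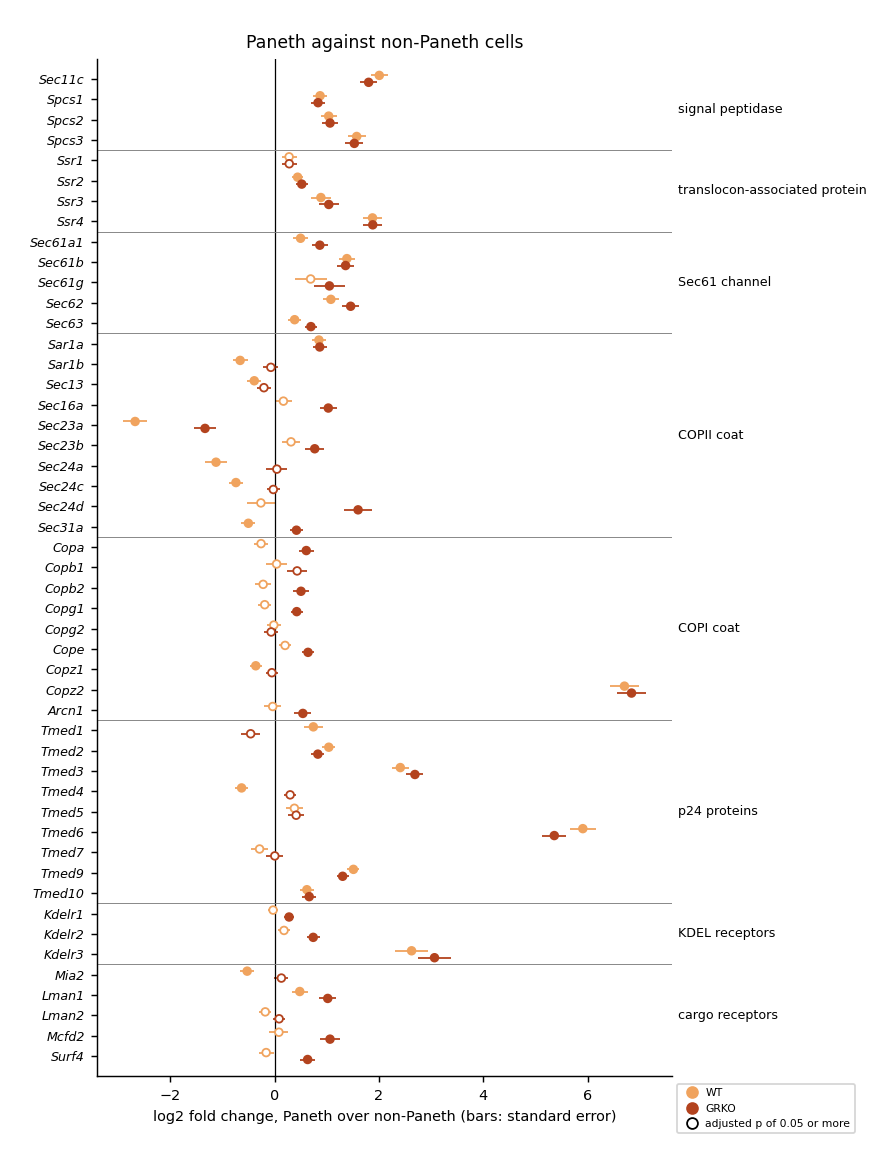
Log2 fold change of each of the 49 genes, Paneth over non-Paneth cells, in WT and GRKO mice, with standard errors as bars and open symbols for an adjusted p of 0.05 or more. Entry genes at the top lie right of 0 in both genotypes, and COPII genes such as Sec31a and Sec24d lie left of 0 in WT and right of 0 in GRKO mice. Values are on the TMM scale, and with library totals alone the medians of the 49 genes were -0.43 and -0.30.

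In GRKO mice the comparison of cell fractions, made on other libraries than the WT one, gave 34 genes higher and 1 lower in Paneth cells, where 18% and 21.2% of all tested genes were higher and lower. The median log2 fold change was 0.66, against -0.08 for all tested genes. With library totals alone 11 members were higher and 23 lower, where 816 of 13057 tested genes were higher and 9968 lower. The entry genes gave 12 of 13 higher, 5 of 10 COPII genes were higher, 6 of 9 COPI genes, 5 of 9 p24 genes, all 3 KDEL receptors and 3 of 5 cargo receptors. Sec23a was the 1 member that was lower, at 19.8, 30.7 and 32.3 CPM in GRKO Paneth and 75.2, 62.0 and 72.1 CPM in GRKO non-Paneth libraries (edgeR, log2 fold change -1.33 ± 0.215 SE, adjusted p = 0.000231). Copz2 was at 52.2, 40.5 and 45.7 CPM against 0.326, 0.503 and 0.345 CPM (7, 12 and 8 counts), a 115-fold difference. Tmed6 was at 265, 163 and 202 CPM against 3.96, 6.62 and 4.70 CPM, and Kdelr3 at 55.2, 46.1 and 55.2 CPM against 4.19, 9.56 and 4.87 CPM.

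Set side by side, 20 members were higher in Paneth cells in both genotypes and 1, Sec23a, was lower in both. Another 13 were not called in WT but higher in GRKO mice, 7 were lower in WT and not called in GRKO mice, and 6 were called in neither (Ssr1, Copb1, Copg2, Tmed5, Tmed7 and Lman2). Tmed1 was called higher in WT and not called in GRKO mice. Sec31a was called in opposite directions, with log2 fold changes of -0.50 in WT and 0.42 in GRKO mice. A difference in calls is not a test of a difference, which is given below for each gene.

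The comparison of GRKO with WT Paneth cells asks what loss of the receptor changes in the secretory cell. With TMM scaling 8 members were higher and 1 was lower in GRKO Paneth cells, where 1.7% of all tested genes were higher and 1.52% were lower. The median was 0.30, against 0.03 for all tested genes, and 39 of the 49 log2 fold changes were positive. The genes called higher were Sec61a1, Sec16a, Sec23b, Sec24c, Sec31a, Copa, Copg1 and Lman2, with log2 fold changes from 0.49 to 0.72 and adjusted p-values from 0.0448 to 0.0479. None of the 9 calls held under every alternative. A fit to the 6 Paneth libraries alone called 0 members and 0 genes, with 20 members and 2341 genes at an unadjusted p under 0.05. DESeq2 called 17 members higher and 2 lower, against 837 and 627 of all genes. A false discovery rate of 1% left 0 members and 0 genes. Without WT Paneth replicate 1 the fit called 0 members and 1 gene, and the median was 0.15. Without GRKO Paneth replicate 2 it called 0 members and 0 genes, and without GRKO Paneth replicate 3 it called 0 members and 41 genes. Without WT Paneth replicate 2 it called 1 member and 86 genes. Without GRKO Paneth replicate 1 it called 13 members higher and 4 lower, against 928 and 690 of 13379 tested genes. Leaving out any single non-Paneth library also left 0 higher.

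Sec16a was at 186, 234 and 225 CPM in GRKO Paneth libraries, all above the WT values given earlier (edgeR, log2 fold change 0.71 ± 0.166 SE, adjusted p = 0.0448). Sec31a was at 325, 369 and 327 CPM and Copa at 441, 520 and 442 CPM, both also without overlap with WT. Sec23b was at 156, 172 and 142 CPM. Sec24c was at 176, 184 and 167 CPM. Copg1 was at 213, 251 and 216 CPM in GRKO and 144, 172 and 166 CPM in WT Paneth libraries. Sec24d was at 160, 193 and 184 CPM, above all WT Paneth libraries, and did not pass the test (edgeR, log2 fold change 0.89 ± 0.263 SE, adjusted p = 0.0706).

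Tmed1 was the 1 member that was lower, at 11.6, 7.93 and 7.76 CPM in GRKO Paneth cells and below every WT Paneth library (edgeR, log2 fold change -0.82 ± 0.187 SE, adjusted p = 0.0448). Genes annotated on the opposite strand, AB124611 and Dnm2, together cover 21.1% of the exon bases of Tmed1. The genes that mark WT Paneth cells most strongly did not pass the genotype test. Log2 fold changes were 0.15 ± 0.184 SE for Copz2, -0.07 ± 0.189 for Tmed6, 0.20 ± 0.289 for Kdelr3 and -0.19 ± 0.161 for Sec11c (edgeR, adjusted p = 0.621, 0.836, 0.697 and 0.456). The summed tuft markers given above were also higher in GRKO than in most WT Paneth libraries, and summed stem cell markers were 4514 to 6536 CPM in GRKO against 8351 to 8750 CPM in WT Paneth libraries. Their part in these differences was not tested.

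In non-Paneth cells 2 members were higher and 9 were lower in GRKO than in WT mice with TMM scaling, where 17.5% and 19.8% of all tested genes were higher and lower, so the share of members that were lower (18.4%) was near the background. With library totals alone 16 members were higher and 5 lower, where 4348 of 13057 tested genes were higher and 1478 lower. The median of all tested genes moved from 0.02 to 0.31. Relative to that median the members' median was -0.14 with both scalings, a value that a change of scaling leaves nearly unchanged in any case. Of the 9 lower genes 5 belong to the COPII coat, and Cope, Tmed4, Mia2 and Mcfd2 are the others. On library totals alone 2 COPII genes were higher and 3 lower.

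Sar1b was at 52.8, 54.4 and 57.9 CPM in GRKO non-Paneth cells, about 2.05-fold below WT (edgeR, log2 fold change -1.03 ± 0.141 SE, adjusted p = 8.09e-05). Sec23a was at 75.2, 62.0 and 72.1 CPM (edgeR, log2 fold change -1.0 ± 0.207 SE, adjusted p = 0.00203). Sec24d was at 64.5, 58.1 and 54.6 CPM (edgeR, log2 fold change -0.97 ± 0.262 SE, adjusted p = 0.012). All 3 sets of GRKO libraries lay below all WT non-Paneth libraries. Sec24a was at 52.1, 43.7 and 43.9 CPM and fell by 0.59, and Sec31a was at 271, 247 and 245 CPM and fell by 0.37.

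Tmed4 was at 76.4, 75.95 and 83.7 CPM in GRKO non-Paneth cells (edgeR, log2 fold change -0.76 ± 0.12 SE, adjusted p = 0.000237). Mcfd2 was at 73.2, 74.9 and 90.8 CPM (edgeR, log2 fold change -0.76 ± 0.183 SE, adjusted p = 0.0047), and Mia2 was at 129, 121 and 129 CPM (edgeR, log2 fold change -0.47 ± 0.132 SE, adjusted p = 0.0121). The 2 genes that were higher were Ssr1, at 202, 214 and 196 CPM (edgeR, log2 fold change 0.50 ± 0.143 SE, adjusted p = 0.0123), and Tmed9, at 79.1, 91.4 and 76.5 CPM (edgeR, log2 fold change 0.51 ± 0.114 SE, adjusted p = 0.00278). The 11 called genes had no overlap between GRKO and WT non-Paneth libraries. They were picked by the test on these same libraries, so this is not separate support. The share of all tested genes without overlap was not computed. The summed enterocyte markers were lower in all GRKO than in all WT non-Paneth libraries, with 4 of 8 called lower, and 6 proliferation markers summed to 1291 to 1356 against 763 to 871 CPM, with 6 of 6 called higher. The part of the mix of cells in the 11 changes was not tested.

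**Figure D3:**
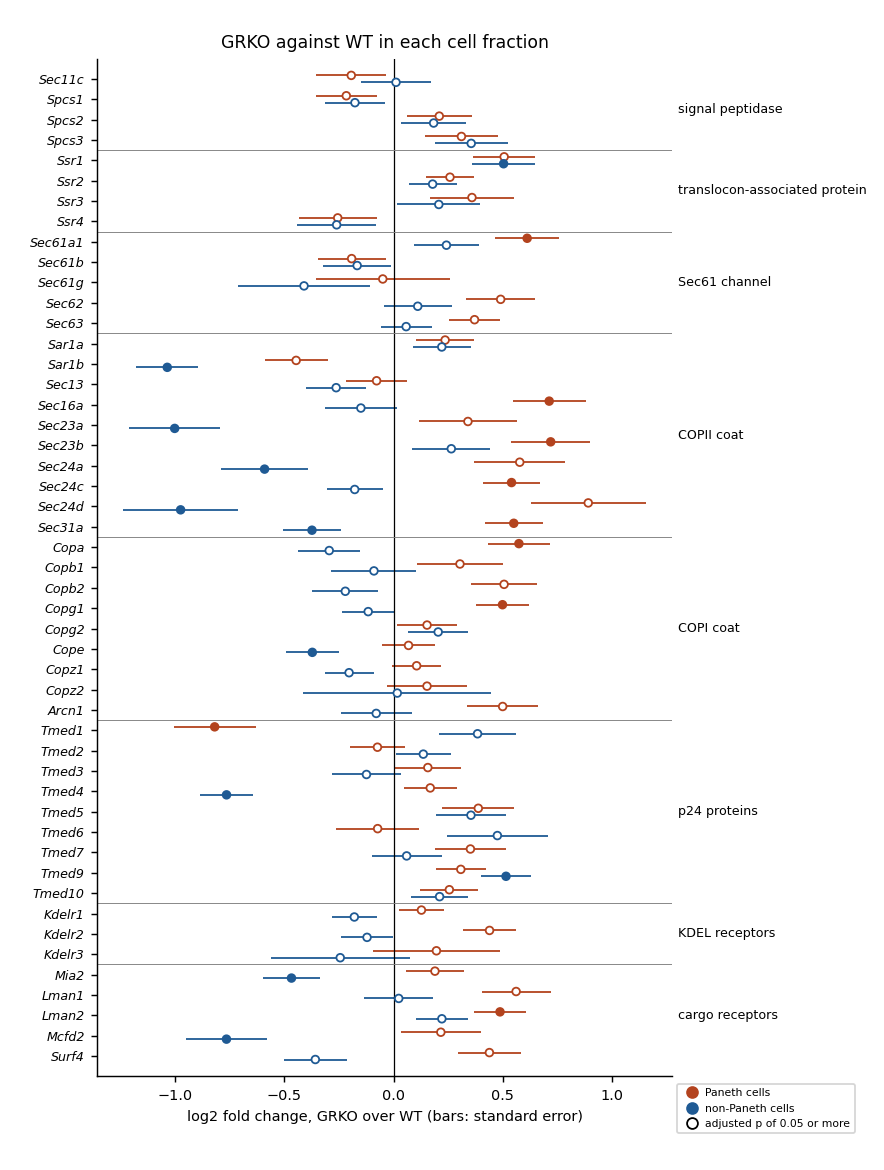
Log2 fold change of each of the 49 genes, GRKO over WT, in Paneth cells and in non-Paneth cells, with standard errors as bars and open symbols for an adjusted p of 0.05 or more. In the COPII group most Paneth values lie right of 0 and most non-Paneth values left of it, while signal peptidase values of both fractions lie near each other. Values are on the TMM scale, and with library totals alone the median of the non-Paneth values was 0.17.

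The difference between the genotype effects was tested in the same fit, as the log2 GRKO over WT change in Paneth cells minus that in non-Paneth cells. It was positive for 14 members and negative for 1, where 11.5% of all tested genes were positive and 7.28% negative. The median was 0.31 against -0.01 for all tested genes. With library totals alone 6 members were positive and 2 negative, where 752 of 13057 tested genes were positive and 1836 negative. Of the 14 members positive with TMM scaling, 6 were COPII genes (Sec16a, Sec23a, Sec24a, Sec24c, Sec24d and Sec31a). A further 3 were COPI genes (Copa, Copb2 and Copg1) and 3 were cargo receptors (Mia2, Mcfd2 and Surf4). The others were Tmed4 and Kdelr2. On library totals alone 4 COPII and 0 COPI genes were positive. None of the 13 entry genes passed this test, with 0 of them at an unadjusted p under 0.05. In the same test 6 of 6 stem cell, 5 of 6 proliferation and 4 of 6 tuft markers were negative, 2 of 8 enterocyte markers were positive, and 0 of 8 goblet and 0 of 10 Paneth markers were called in either direction. Their part in the members' differences was not tested.

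The largest difference was that of Sec24d, 1.86 on the log2 scale (edgeR, adjusted p = 0.00579), for which the change was 0.89 in Paneth and -0.97 in non-Paneth cells. Sec23a followed with 1.34 (0.34 and -1.0) and Sec24a with 1.17 (0.58 and -0.59). For Sec31a the difference was 0.92 (0.55 and -0.37), for Copa 0.87 (0.57 and -0.29) and for Surf4 0.80 (0.44 and -0.36). Surf4 was at 426, 477 and 493 CPM in GRKO Paneth and 314, 290 and 297 CPM in GRKO non-Paneth libraries. Stkld1 and Surf2 on the opposite strand cover 74.8% of the exon bases of Surf4, and without the strand setting of the counting their reads cannot be told apart. Tmed1 was the exception, with a difference of -1.2 (edgeR, adjusted p = 0.00575) from -0.82 in Paneth and 0.38 in non-Paneth cells. In GRKO non-Paneth libraries it was at 12.8, 11.74 and 12.7 CPM. The calls for Sec23a, Sec24d, Sec31a, Tmed1 and Tmed4 held under every alternative. These differences rest on the same libraries as the comparisons above, and WT Paneth replicate 1 had the lowest WT Paneth level of Sec24d, Sec31a, Copa and Surf4. Without that library 13 members were positive and 1 negative, against 1404 and 848 of 13361 tested genes. The count of positive members was 10 to 16 over the removal of any single library.

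**Figure D4:**
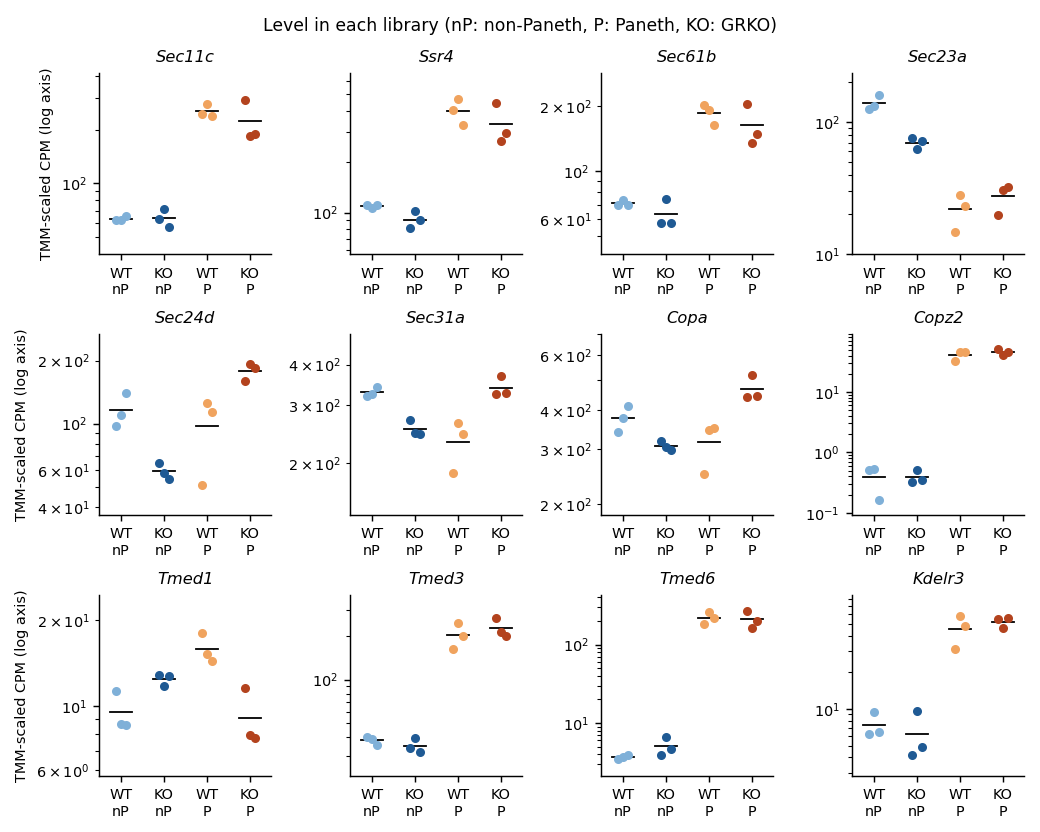
TMM-scaled CPM on log axes of 12 members in each library, with a bar at the mean of each group of 3. Sec11c, Ssr4, Sec61b, Copz2, Tmed3, Tmed6 and Kdelr3 are higher in all 6 Paneth libraries than in all 6 non-Paneth libraries, Sec23a is lower in all 6, and Sec24d, Sec31a and Copa are lower in GRKO than WT non-Paneth but higher in GRKO than WT Paneth libraries on this scale.

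Several of these genes come in paralogs that can take the same place in a coat or complex, and so the share of each in the summed level per kilobase of its set was computed for each library. Fraction labels were permuted within each genotype over all 400 arrangements, so that 0.005 is the smallest two-sided p the test can give, and p-values were adjusted over the 12 shares. With WT labels swapped only between same-numbered libraries, 160 arrangements remain, 0.0125 is the smallest p, and no call of a share changed. GRKO labels were exchanged freely in both versions. Within one genotype, 3 against 3 libraries cannot go below 0.1. Shares do not depend on the scaling between libraries. In all, 7 shares reached the smallest p and 2 more an adjusted p of 0.0267.

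Sec23a made up 54.5% ± 0.939 (SD, n = 3) of the Sec23 set in WT non-Paneth and 13.1% ± 0.756 in WT Paneth cells, and 33.2% ± 2.63 and 10.4% ± 2.64 in the GRKO fractions. The mean difference was -32.1 percentage points (exact permutation test, p = 0.005, adjusted p = 0.00857). Copz2 took 31.8% ± 5.77 of the zeta subunits in WT Paneth and 32.7% ± 5.05 in GRKO Paneth cells, against 0.35% ± 0.185 and 0.395% ± 0.109 in the non-Paneth fractions (difference 31.9 points). Sec11c took 79.8% ± 1.13 in WT Paneth and 55.1% ± 0.484 in WT non-Paneth cells of the pair it forms with Sec11a (difference 23.1 points). Sec11a itself was at 80.04, 89.3 and 87.2 CPM in WT Paneth, 67.9, 65.4 and 71.9 CPM in WT non-Paneth, 94.4, 79.5 and 80.7 CPM in GRKO Paneth and 67.8, 70.4 and 63.2 CPM in GRKO non-Paneth libraries.

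Sar1b fell from 77.6% ± 2.04 of the Sar1 set in WT non-Paneth to 55.2% ± 4.15 in WT Paneth cells, and from 59.4% ± 1.56 to 43.3% ± 4.31 in GRKO mice (difference -19.3 points). Kdelr3 took 15.2% ± 2.88 of the KDEL receptors in WT Paneth and 2.99% ± 0.64 in WT non-Paneth cells (difference 12.03 points), Kdelr1 differed by -11.5 points, and Kdelr2 stayed between 41.0% and 47.0% in all libraries (difference -0.53 points, exact permutation test, p = 0.495).

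In the Sec24 set, Sec24d differed by 15.9 points and Sec24c by -9.92 points as means of both genotypes (exact permutation test, both p = 0.02, adjusted p = 0.0267). Both differences were larger in GRKO mice. Sec24d took 38.4% ± 9.01 in WT Paneth and 31.4% ± 2.4 in WT non-Paneth cells, against 45.9% ± 1.07 and 21.1% ± 0.445 in GRKO mice. Sec24c took 43.7% ± 5.87 and 47.5% ± 2.22 in these WT fractions, against 39.0% ± 3.09 and 55.1% ± 0.955 in GRKO mice. WT Paneth replicate 1, with 28.1% Sec24d, lay below the WT non-Paneth libraries (29.7 to 34.1%), whereas the other 2 had 44.8 and 42.2%. Without WT Paneth replicate 2 or 3 both calls were lost, with adjusted p of 0.0525 for Sec24d and 0.0533 for Sec24c. Sec24b was at 34.0, 29.8 and 31.0 CPM in WT Paneth, 49.9, 47.8 and 46.7 CPM in WT non-Paneth, 33.7, 50.6 and 39.7 CPM in GRKO Paneth and 56.6, 53.4 and 47.0 CPM in GRKO non-Paneth libraries. Its share differed by -2.91 points (exact permutation test, p = 0.07, adjusted p = 0.084) and passed without WT Paneth replicate 1 (adjusted p = 0.018). Group means of that share were 10.1% and 9.86% in WT Paneth and non-Paneth cells, and 7.84% and 13.9% in GRKO mice. Copg2 took 9.46 to 12.8% of the gamma subunits by group means, with no difference past the test (p = 0.27 by the exact permutation test). Its exons overlap those of Mest on the opposite strand over 38.3% of their bases.

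**Figure D5:**
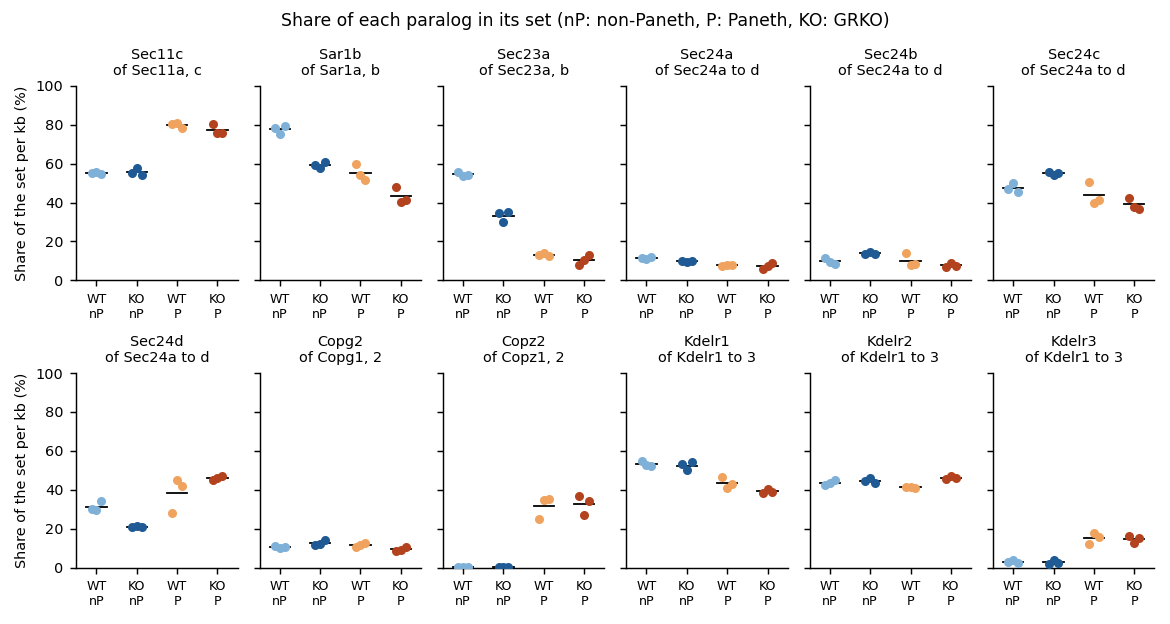
Share of each of 12 paralogs in the summed level per kilobase of its set, in percent, for each library, with a bar at each group mean. Sec23a and Sar1b fall and Sec11c, Copz2 and Kdelr3 rise from non-Paneth to Paneth cells in both genotypes, and 1 WT Paneth library stands apart for Sec24c and Sec24d.

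Of 78 other genes of the same pathway, listed by function, 75 could be tested. In WT Paneth against WT non-Paneth cells 28 were higher and 16 lower, where 24% and 26.7% of all tested genes were higher and lower. The signal recognition particle and its receptor, which bring ribosomes to the channel, had 8 of 9 tested genes higher and 0 lower, and the oligosaccharyltransferase, which adds N-glycans in the ER, had 8 of 11 higher and 0 lower. Other COPII and ER exit genes had 2 of 15 higher and 6 lower, COPI and Arf genes 3 of 10 higher and 3 lower, and SNAREs and tethers 4 of 22 higher and 5 lower. Ergic1, a protein of the ER-Golgi intermediate compartment, had the largest rise with 1.65 ± 0.12 SE on the log2 scale, followed by the BiP cochaperone Dnajb9 with 1.64 ± 0.257 and Srp9 with 1.36 ± 0.181 (edgeR, adjusted p = 3.25e-08, 0.000166 and 1.61e-05). The translocation protein Tram2 fell by 2.66 ± 0.459, the exit-site protein Tfg by 1.68 ± 0.137 and Sec16b, a shorter relative of Sec16a, by 1.41 ± 0.161 (edgeR, adjusted p = 0.000205, 1.04e-07 and 3.2e-06).

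In GRKO mice 43 of these 75 genes were higher and 4 lower in Paneth cells, against 18% and 21.2% of all tested genes. In GRKO against WT Paneth cells 9 were higher and 0 lower, against 1.7% and 1.52%, among them Ergic1, Gbf1, Golga2, Gosr2, Mia3, Preb, Srp68 and Srp72. The genes named here had log2 fold changes from 0.40 (Preb) to 0.69 (Gbf1) and adjusted p from 0.0434 (Gosr2) to 0.0481 (Golga2) by edgeR. In this comparison a fit to the Paneth libraries alone called 0 genes, and so did a 1% threshold. In non-Paneth cells 4 were higher and 16 lower in GRKO mice, against 17.5% and 19.8%, so the number that were lower was near the background. For 16 of the 75 the genotype effect was more positive in Paneth than in non-Paneth cells, with 0 the other way, against 11.5% and 7.28%. Tfg changed by 0.46 in Paneth and -0.79 in non-Paneth cells, and Sec16b by 0.15 and -1.29 (difference tested with edgeR, adjusted p = 0.000754 and 0.000915).

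Transcription factors and sensors known to act on this machinery were also followed. Of 13, 8 were higher and 4 lower in WT Paneth than in WT non-Paneth cells, against 24% and 26.7% of all tested genes. Bhlha15 (MIST1, a scaling factor of secretory cells) rose by 6.29 ± 0.241 SE on the log2 scale, Creb3l4 by 2.80 ± 0.21, the sensor Ern2 by 2.55 ± 0.212, Creb3l1 by 1.76 ± 0.198 and Xbp1 by 0.74 ± 0.142. Creb3l3, a factor of absorptive and liver cells, fell by 5.80 ± 0.626, Ddit3 by 1.51 ± 0.285 and Creb3l2 by 0.73 ± 0.203. Creb3l2, known to activate coat genes including Sec23a, changed by 0.56 in GRKO Paneth and by -1.35 in GRKO non-Paneth cells. The difference was 1.92 ± 0.287 SE (edgeR, adjusted p = 0.000764). Any part of Creb3l2 in the levels of the coat genes was not tested. Xbp1 and Creb3l4 did not pass the genotype test in either fraction. Bhlha15 was higher in GRKO than WT cells in both fractions, at log2 fold changes of 0.80 and 1.14 (edgeR, adjusted p = 0.0448 and 0.00179). Of the 13 regulators, 2 were higher and 0 lower in GRKO Paneth cells, against 1.7% and 1.52% of all tested genes. A fit to the Paneth libraries alone called 0 genes between genotypes.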

How the data were processed

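RNA of the sorted cells was sequenced as single-end reads of stranded TruSeq libraries. The methods name 1 RNA kit and the labels another. Per the authors' methods and the submitters' processing notes, reads were trimmed with Trimmomatic 0.39 and aligned with STAR 2.7.10a to mm39 with an annotation given as gencode v28, and reads were counted per gene during alignment. The strand setting of the counting was not given, and genes on the opposite strand share 74.8% of the exon bases of Surf4, 38.3% of Copg2, 29.6% of Tmed10, 21.1% of Tmed1, 17.3% of Sec61a1, 15.5% of Cope and at most 10.5% of the other members. The deposited values are raw counts per gene, all whole numbers. Of 55414 Ensembl identifiers, 54749 (98.8%) were named through GENCODE vM39 and 665 were not named. Where 2 identifiers shared a symbol, the one with most counts was used.

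Differences were tested in R 4.3.3 with edgeR 4.0.16 (glmQLFit with robust estimates, glmQLFTest, filterByExpr, TMM) in 1 fit of all 12 libraries with a mean per group. P-values were adjusted by Benjamini-Hochberg over all 13057 tested genes, with a threshold of 5%. The standard error was the log2 fold change divided by the square root of its F statistic. The study's methods name DESeq2 (1.42.0 here), which was an alternative. Other alternatives were RLE factors, library totals, TMM factors without Lyz1 and Defa genes, no filter, a filter of 10 counts, only the groups compared, a replicate block, each library left out and a 1% threshold. Levels per kilobase used the canonical transcript. Groups have 3 libraries, and depth per library is given above. The fit was tested on simulated data in which 200 of 13057 genes were changed 4-fold, equally many up and down. It recovered 80.5 to 92.5% of them, and 2.7 to 4.7% of its calls were false. Rates for smaller changes, or for as many changed genes as the comparisons of fractions called, were not measured. The simulated libraries were otherwise alike in composition, so the correction for composition was not tested. Any pair of libraries of a group differed by far more than sampling noise (chi-square per degree of freedom 12.3 to 47.1), so none was counted as a repeat.

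After group means were removed, same-numbered WT Paneth and WT non-Paneth libraries correlated at 0.32, 0.211 and 0.197. Those of different numbers correlated at -0.191 to -0.000183, so the numbers pair these fractions. For GRKO the same-numbered correlations were 0.0449, 0.249 and 0.439, and those of different numbers were -0.339 to 0.167. Only the value of replicate 1 lay within that range, so whether the numbers pair the GRKO fractions is unclear. Across genotypes same-numbered libraries correlated at -0.0852 to 0.148 and others at -0.256 to 0.199, so the numbers do not pair the genotypes.

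The members and lists were chosen with earlier results of these data known. Values in every library are given for the members with the highest and lowest WT fold change of each role group, for the 15 with the smallest adjusted p in a genotype comparison or the interaction, and for paralog sets. Of other genes, Nr3c1, Sec11a and Sec24b, the 3 largest changes each way, those called between genotypes in Paneth cells (1 is not reported here) and 4 regulators are named. The labels give no batch, so a batch that followed genotype or fraction cannot be told apart from it. No column of the authors' own comparisons was used.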

Additional observations from a re-analysis of the deposited data

Results flagged for a closer look

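For 15 of the 49 genes the genotype effect differed between the cell fractions by the interaction term of the edgeR fit (adjusted p from 0.00242 to 0.0334). The log2 GRKO over WT change in Paneth cells minus that in non-Paneth cells was 1.86 for Sec24d, 1.34 for Sec23a, 1.17 for Sec24a, 0.92 for Sec31a, 0.86 for Sec16a and 0.72 for Sec24c among COPII genes. It was 0.87 for Copa, 0.73 for Copb2 and 0.61 for Copg1 among COPI genes. It was 0.98 for Mcfd2, 0.8 for Surf4 and 0.66 for Mia2 among cargo receptors, 0.93 for Tmed4 and 0.56 for Kdelr2. Tmed1 had the opposite sign, at -1.2. No group had enough libraries to look for a single outlying sample, since each held 3.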

How the results depend on the processing

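Apart from leaving out libraries, scaling by library totals alone changed the calls of the most members in the comparisons of fractions and between non-Paneth groups. Of 13057 tested genes it called 1097 higher and 7892 lower in the WT comparison of fractions, and 816 and 9968 in the GRKO one. Between non-Paneth groups it called 4348 higher and 1478 lower, and for the difference between genotype effects 752 positive and 1836 negative. In the WT comparison of fractions it called 11 members higher and 26 lower, with a median of -0.43, and the log2 fold changes that turned were Ssr1 -0.43, Ssr2 -0.26, Sec61a1 -0.22, Sec63 -0.32, Sec16a -0.55, Sec23b -0.41, Copb1 -0.68, Cope -0.50, Tmed10 -0.095, Kdelr2 -0.53, Lman1 -0.24 and Mcfd2 -0.65. In GRKO mice it called 10784 genes, with 11 members higher and 23 lower and a median of -0.30, and the turned values were Spcs1 -0.15, Ssr1 -0.68, Ssr2 -0.46, Sec61a1 -0.10, Sec63 -0.27, Sar1a -0.10, Sec23b -0.20, Sec24a -0.91, Sec31a -0.55, Copa -0.36, Copb1 -0.54, Copb2 -0.47, Copg1 -0.54, Cope -0.35, Arcn1 -0.42, Tmed2 -0.15, Tmed4 -0.68, Tmed5 -0.56, Tmed7 -0.96, Tmed10 -0.30, Kdelr1 -0.69, Kdelr2 -0.23, Mia2 -0.84, Lman2 -0.89 and Surf4 -0.33. These turns follow the shift of the median of all genes given above. The same scaling called 2 genes and 0 members either way in GRKO against WT Paneth cells, 16 members higher and 5 lower (median 0.17) in non-Paneth cells, and 6 positive and 2 negative differences between the genotype effects (median 0.054). The median of the GRKO comparison of fractions was 0.72 with RLE factors, 0.74 with TMM factors without Lyz1 and Defa genes, 0.60 with no filter, 0.77 with 10 counts, 0.76 with only the groups compared and 0.72 with DESeq2, and no filter gave 2 lower members. In GRKO against WT Paneth cells, no filter called 1780 genes and 15 members higher, only the groups compared called 0 genes and 0 members higher or lower (20 members at an unadjusted p under 0.05), DESeq2 called 1464 genes with 17 members higher and 2 lower, a 1% threshold called 0 genes and 0 members, and the median was 0.26 with TMM factors without Lyz1 and Defa genes, 0.25 with 10 counts and 0.26 with only the groups compared. In non-Paneth cells only the groups compared called 4 members higher, against 2752 of 12682 tested genes. A 1% threshold there called 3002 genes with 1 member higher and 4 lower. For the difference between genotype effects a 1% threshold called 955 genes and 5 positive members. The cause of the changes in counts other than those from the threshold was not tested. Leaving out a library, or both WT replicate 2 libraries together (the 2 with Xist, chosen after seeing the data), gave 5213 to 6844 genes, 18 to 24 members higher, 7 to 9 lower and a median of 0.16 to 0.50 in the WT comparison of fractions. It gave 3981 to 5639 genes, 30 to 38 higher, 1 to 2 lower and 0.65 to 0.77 in GRKO mice, 0 to 1618 genes, 0 to 13 higher, 0 to 4 lower and 0.15 to 0.43 between Paneth groups, 3610 to 5504 genes, 1 to 4 higher, 6 to 11 lower and -0.24 to -0.10 between non-Paneth groups, and 1563 to 2607 genes, 10 to 16 positive, 1 negative and 0.22 to 0.40 for the difference. With the replicate block, 22 members were higher and 9 lower in the WT comparison of fractions, which it pairs. Of all 13057 tested genes 3272 were higher and 3678 lower there. Among members Tmed5 (0.37, adjusted p = 0.0381) was the 1 added call, with no call lost. In the GRKO comparison of fractions, where pairing is unclear, the block gave 35 members higher and 2 lower. The counts over all tested genes were 2500 and 3021. Between genotypes, where libraries share only a number, the block gave 15 members higher and 1 lower in Paneth cells (977 genes). Of those genes 559 were higher and 418 lower. Without the block 222 genes were higher and 198 lower, with 8 members higher and 1 lower. In non-Paneth cells the block gave 3 members higher and 9 lower, against 2353 and 2638 of all tested genes. For the difference between genotype effects it gave 16 members positive and 1 negative, against 1806 and 1171 of all tested genes. Called members that kept their direction and call under every alternative were 18 of 30, 12 of 35, 0 of 9, 5 of 11 and 5 of 15 in the order above. Among paralog shares, leaving out a library gave 22.3 to 23.6 points for Sec11c, -20.5 to -18.4 for Sar1b, -32.9 to -31.5 for Sec23a, -3.44 to -2.65 for Sec24a, -3.86 to -2.36 for Sec24b, -11.6 to -8.88 for Sec24c, 14.3 to 18.5 for Sec24d, -1.41 to -0.72 for Copg2, 30.8 to 33.5 for Copz2, -12.3 to -10.9 for Kdelr1, -0.83 to -0.21 for Kdelr2 and 11.4 to 12.8 for Kdelr3. Lengths over all annotated exons and the replicate block in WT (labels swapped within same-numbered WT libraries, adjusted p = 0.0333 for Sec24c and Sec24d), both chosen after seeing the data, changed no call of a share. The low counts of Copz2 in non-Paneth cells and of Sec61g everywhere limit their precision.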
